A study of Mus musculus with 4 samples.

Results

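Migratory dendritic cells (DC) of the MYCN-driven mouse high-grade glioma made up 141 of the 10975 cells kept from 4 tumors. Cells were selected on their own RNA, as counted by unique molecular identifiers (UMIs, 1 for each captured molecule). A cell was a migratory DC when at least 3 of the 5 genes Ccr7, Ccl22, Fscn1, Cacnb3 and Cd83 had a UMI and Cd74 had at least 1. It could hold UMIs of at most 1 of the 3 C1q genes and of at most 1 of the 3 Cd3 genes, and had to hold under 5 UMIs of the reporter transcripts FLUC and humanNMYC together. Kept cells had at least 200 detected genes, under 25% mitochondrial UMIs and at most 40000 UMIs. Mouse 4 gave 6 of 3319 cells, mouse 5 gave 7 of 1455, mouse 6 gave 119 of 2732 and mouse 7 gave 9 of 3469, so that most values below rest on mouse 6.

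All 4 mice were hGFAP-cre::TP53Fl/Fl::lsl-MYCN animals, in which Cre recombinase under the human GFAP promoter, active in radial glia and the cells that descend from them, removes p53 and switches on human MYCN together with firefly luciferase. Mice 4 and 5 were 43 days old (P43) and mice 6 and 7 were 70 days old (P70), and no tumor-free brain was analysed here. Each tumor was digested with papain and DNase, red blood cells were lysed, dead cells were removed by 7-aminoactinomycin D staining, and about 10000 vital cells entered each 10x Genomics 3′ library. The libraries held 15044263, 13106786, 18698291 and 40621958 UMIs in mice 4 to 7, with a median of 1419, 4199, 4586.5 and 10450 UMIs per kept cell.

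The migratory DC had a median of 1055.5, 8899, 5241 and 2858 UMIs per cell in mice 4 to 7, and 10834, 47743, 601434 and 23174 UMIs in all. One UMI therefore weighed far more in mouse 4 than in mouse 6. Between 1 and 3 cell barcodes were shared by any pair of libraries, and none of the shared barcodes belonged to a migratory DC. Sex labels and Y-linked RNA disagreed in both P43 libraries: cells with under 5 reporter UMIs held Y-linked genes at 171 counts per 1000000 UMIs (CPM) in mouse 4, labelled female, and at 0.505 CPM in mouse 5, labelled male. Mouse 6, labelled male, had 186 CPM and mouse 7, labelled female, had 0 CPM. Sex was not used, and ages were taken as labelled.

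DC take up antigen in tissues and present it to T cells. On maturation, conventional DC of either subset, cDC1 or cDC2, raise the chemokine receptor CCR7, which guides them along CCL19 and CCL21 into lymphatic vessels and the T cell zones of lymph nodes, while they lower antigen uptake and raise costimulatory ligands. The same program, with NF-kB signalling, the actin bundler fascin and checkpoint ligands such as PD-L1, is known from tumors, where such cells are also called mature regulatory DC. Movement itself was not measured here, and "migratory" names the RNA program.

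The genes that chose the cells are given as a description. Ccr7 (chr11:99144196-99155077, minus strand, mm10) stood at 1569, 1089, 3121 and 3754 CPM in the migratory DC of mice 4 to 7 and had a UMI in 5 of 6, 7 of 7, 114 of 119 and 9 of 9 of them. Fscn1 (chr5:142960343-142973185, plus strand), which encodes fascin, stood at 1477, 2283, 1448 and 1812 CPM. Both genes were present in all 4 tumors, Fscn1 within a narrower range than Ccr7. Cacnb3 (chr15:98630840-98644529, plus strand), a calcium channel subunit, stood at 369, 482, 476 and 475 CPM, and Cd83 (chr13:43784775-43803132, plus strand), a maturation antigen that stabilises surface MHC class II, at 462, 649, 1279 and 647 CPM. Ccl22 (chr8:94745590-94751699, plus strand), a ligand of CCR4, was the uneven one, at 738, 6367, 494 and 475 CPM. In mouse 5, 2 cells with 160 and 129 UMIs carried 95.1% of its Ccl22 UMIs, and its level without them was 512 CPM.

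The name was checked on 25 further migratory DC markers that the selection did not use, among them the chemokines Ccl5 and Ccl17, the NF-kB subunit Relb, the adaptor Traf1, the signalling inhibitor Socs2 and the amino acid oxidase Il4i1. A migratory DC held UMIs of a median of 7, 15, 14 and 13 of the 25 in mice 4 to 7. Other DC of the same tumors, gated by Cd209a, Clec10a, Flt3 and Napsa and called comparison DC (described with their comparison), held a median of 3, 4, 4 and 2, and macrophages and microglia, gated by C1q genes and Csf1r, of 2, 4, 3 and 1. The median was thus higher in migratory DC than in both other classes in every mouse, and lowest in mouse 4, whose cells were also the shallowest. The list was chosen with earlier results of these data known and is not independent evidence for the name. Summed over the 25 markers, the level was 17722, 18285, 30045 and 29430 CPM in the migratory DC and 801, 1195, 2632 and 1227 CPM in the comparison DC. Ccl5 carried the most UMIs of the list in mice 4, 6 and 7 and Ccl17 in mouse 5. Apol7c, Birc3, H2-M2, Il12b and Stat4 had no UMI in the 6 migratory DC of mouse 4.

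**Figure D1:**
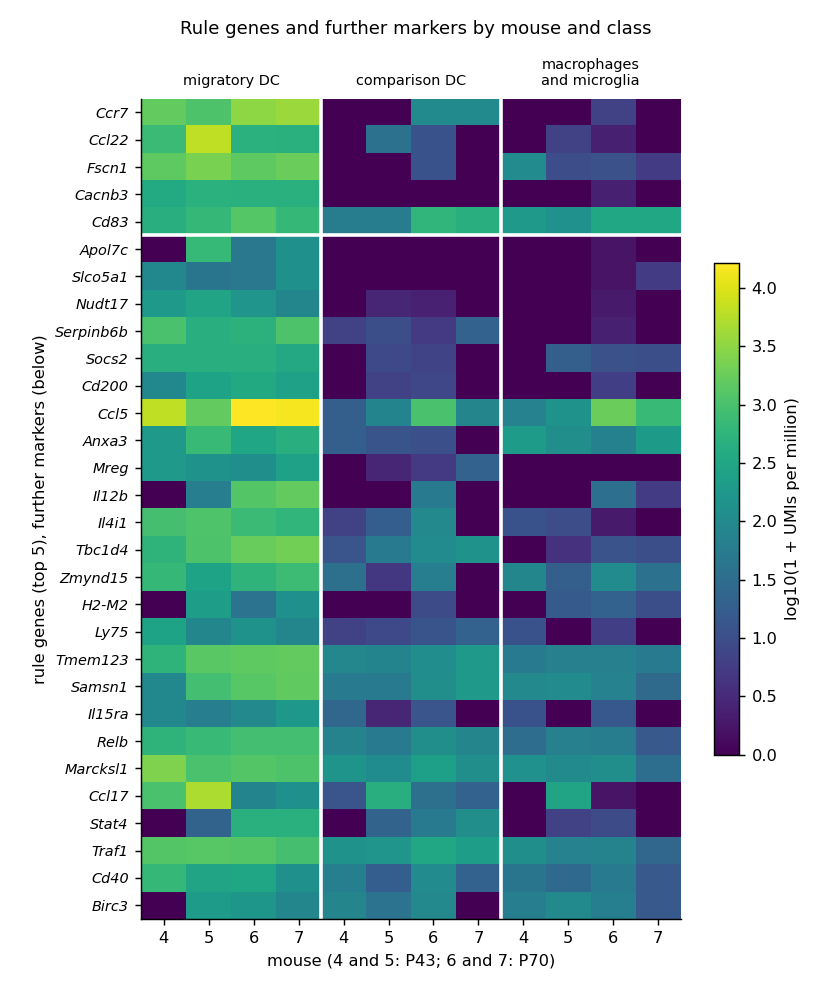
Levels of the 5 genes that chose the cells (top) and of the 25 further markers (below), as log10 of 1 plus CPM, in the migratory DC, the comparison DC and the macrophages and microglia of mice 4 to 7. Most further markers were brighter in the migratory DC columns than in the other columns, and 20 of the 25 were higher than in comparison DC in every mouse. Apol7c, Birc3, H2-M2, Il12b and Stat4 had no UMI in the migratory DC of mouse 4. Ccl22 and Ccl17 were brightest in mouse 5.

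Just outside the limit stood cells with 2 of the 5 genes. In mouse 6, the other conditions of the selection were met by 523 cells with none of the 5 genes, 436 with 1, 83 with 2, 35 with 3, 42 with 4 and 42 with all 5. Ccr7 rose over these steps from 12 CPM with 1 gene to 759 with 2, 1765 with 3, 3567 with 4 and 3821 with 5. Among genes the selection did not use, the GTPase activator Tbc1d4 stood at 326 CPM with 2 genes, 579 with 3, 2480 with 4 and 1941 with 5. Socs2 stood at 33.3, 160, 536 and 614 CPM over the same steps, and the myeloid lysozyme Lyz2 at 488, 160, 10.5 and 313 CPM. Of the 72 Lyz2 UMIs in cells with 5 genes, 66 lay in 1 cell. The 35 cells that just passed were thus closer to the 83 that just failed in Tbc1d4 than to the cells with 4 or 5 genes. In Relb (315, 745 and 1087 CPM with 2, 3 and 4 genes) and Il4i1 (366, 860 and 630 CPM) they were closer to the cells with 4. Their median depth was 5590 UMIs, against 4526.5 with 4 and 5644.5 with 5 genes. Of these 35, 24 lacked Cacnb3, 19 lacked Fscn1 and 19 lacked Ccl22, while of the 42 with 4 genes 36 lacked Ccl22. They held a median of 10 of the 25 further markers, against 15 in the cells with 4 and with 5 genes.

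**Figure D2:**
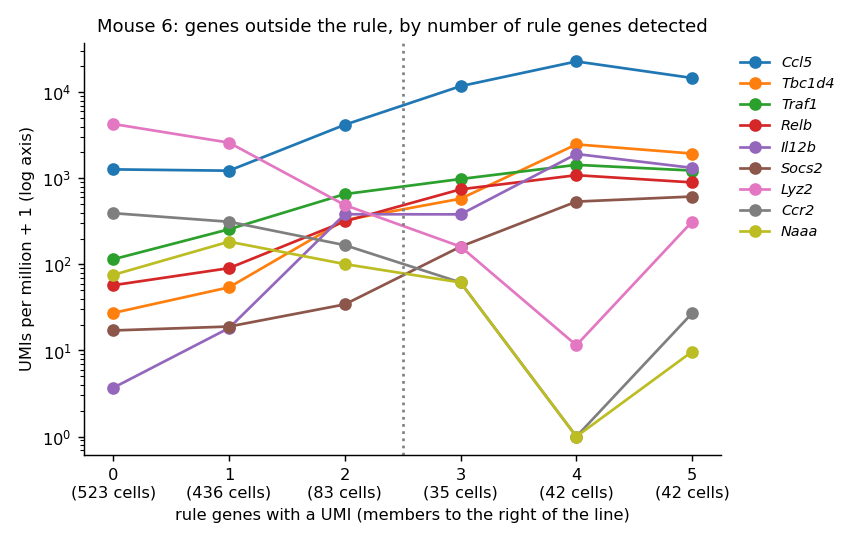
Levels in mouse 6 of 9 genes outside the selection, as CPM plus 1 on a log axis, for cells grouped by how many of the 5 selecting genes had a UMI. Cells to the right of the dotted line were migratory DC. Tbc1d4, Relb, Traf1 and Socs2 were higher to the right and Ccr2, Naaa and Lyz2 lower. Il12b was level across the line (382 CPM with 2 genes and 381 with 3) and higher with 4 (1918 CPM). Most of these genes moved over several steps, and for Socs2 the largest step on this axis lay at the line (33.3 to 160 CPM).

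The share of migratory DC was compared between the ages. They were 0.181% of kept cells in mouse 4 (exact 95% binomial interval 0.0664 to 0.393%), 0.481% in mouse 5 (0.194 to 0.989%), 4.36% in mouse 6 (3.62 to 5.19%) and 0.259% in mouse 7 (0.119 to 0.492%), where intervals cover counting error only. Mouse 6 stood apart, and mouse 7, of the same age, lay between the P43 mice. The mean was 2.31% at P70 and 0.331% at P43, a difference of 1.98 percentage points (2 mice per age, two-sided exact permutation p = 0.667). The smallest p that 2 against 2 mice allow is 0.33. Without mouse 6 the difference was -0.0715 points.

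Depth differed between the mice, so that cells of at least 2000 UMIs were also thinned to that number and shallower cells left out, among them 5 of the 6 migratory DC of mouse 4, 1 of 7 in mouse 5, 9 of 119 in mouse 6 and 3 of 9 in mouse 7. The share was then 0 of 1319 cells in mouse 4, which allows up to 0.279%, then 4 of 1209 (0.331%) in mouse 5, 86 cells (4.26%) in mouse 6 and 4 of 3224 (0.124%) in mouse 7. Among cells with under 5 reporter UMIs, the share was 0.201, 0.572, 5.04 and 0.917%, higher in both P70 mice than in both P43 mice. Of migratory plus comparison DC, the migratory DC were 18.8% in mouse 4 (7.21 to 36.4%), 11.9% in mouse 5 (4.91 to 22.9%), 36.5% in mouse 6 (31.3 to 42.0%) and 32.1% in mouse 7 (15.9 to 52.4%). Here too both P70 mice were above both P43 mice, with means of 34.3% and 15.3%. Both comparisons were at the smallest p the design allows (two-sided exact permutation p = 0.33). Age could not be told apart from the libraries made at each age.

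**Figure D3:**
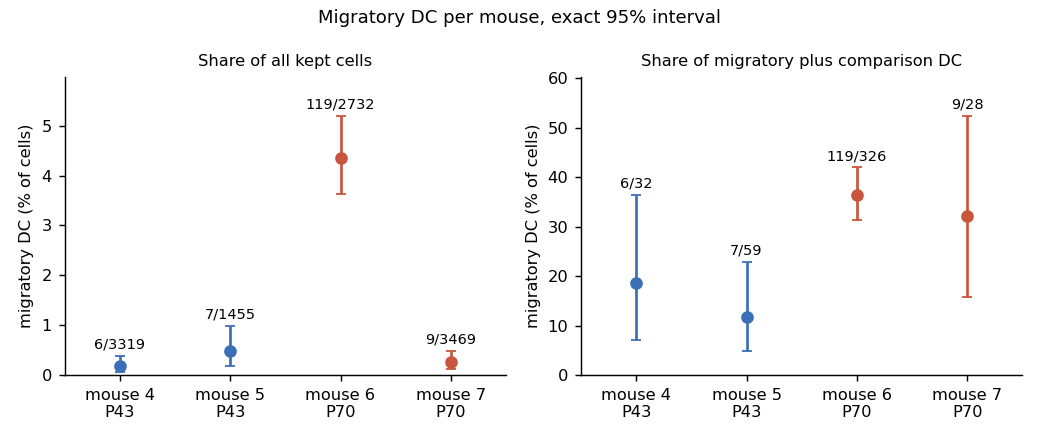
Migratory DC per mouse as a share of all kept cells (left) and of migratory plus comparison DC (right), with exact 95% binomial intervals and the counts above. On the left mouse 6 sits at 4.36% and the other mice under 0.5%. On the right the P70 mice sit at 36.5 and 32.1% and the P43 mice at 18.8 and 11.9%, and the intervals of the ages overlap for every pair of mice but 5 and 6.

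To describe what set the cells apart from other DC of the same tumors, UMIs were summed per mouse and class and compared by the edgeR quasi-likelihood test with the mouse as a block, at a Benjamini-Hochberg adjusted p under 0.05. Comparison DC were 304 cells (26, 52, 207 and 19 in mice 4 to 7) with UMIs of at least 2 of Cd209a, Clec10a, Flt3 and Napsa and none of Siglech, under the same Cd74, C1q, Cd3 and reporter conditions. They were a mixed set: Cd209a stood at 877, 720, 132 and 483 CPM, and in mouse 6, where 31 of the 207 cells had 2 of the selecting genes, Ccr7 stood at 103 CPM. Genes used by either gate were left out of the test. Since both sets were cut from cells by their own RNA, p-values describe the 2 gated sets, and genes that follow the gating genes from cell to cell will differ between them. Of 2504 genes tested, 364 were higher (14.5%) and 360 lower (14.4%) in migratory DC, and the median log2 fold change of all genes tested was -0.10. In all 4 mice, 235 of the 364 and 305 of the 360 went the same way. Without mouse 6, 339 of the 724 called genes could still be tested, all kept their direction and 133 stayed called.

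All 25 further markers passed the filter on low counts and were higher in migratory DC, 20 of them in every mouse, with a median log2 fold change of 3.95 against the -0.10 of all genes. Apol7c and Slco5a1 had no UMI in comparison DC, so that they passed the filter through migratory DC alone and could only be higher. For 18 of the 25, the CPM of all 4 mice in migratory DC lay above all 4 in comparison DC, as for 241 of the 2504 genes tested (9.62%). Ccl5 (chr11:83525778-83530518, minus strand), a chemokine for T cells and NK cells, stood at 6461, 1571, 16378 and 14370 CPM in migratory DC and at 17.7, 77.3, 1020 and 80.4 CPM in comparison DC. The lowest migratory DC value lay above the highest comparison value, for a log2 fold change of 5.31 ± 0.34 (SE; edgeR adjusted p = 4.88e-24). It had a UMI in 6 of 6, 7 of 7, 109 of 119 and 8 of 9 migratory DC. Without mouse 6, 15 of the 25 could be tested and all 15 stayed called, and DESeq2 called 22 of the 25.

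By size, the largest rises that every mouse shared were those of Clu, the chaperone clusterin, and Slco5a1, a transporter-family gene. Neither had a UMI in any comparison DC (at least 43.5-fold and at least 37.1-fold higher). These bounds pool the 4 mice, taking 3 counts over the pooled group as the floor, and do not hold for each mouse. Clu had 1, 1, 34 and 5 UMIs in the migratory DC of mice 4 to 7, and Slco5a1 1, 2, 29 and 3. Next came Nudt17, then the protease inhibitor Serpinb6b (log2 fold change 6.33 ± 0.45), Socs2 (6.19 ± 0.48), the inhibitory ligand Cd200 (5.71 ± 0.51), Lad1, Fam89a, the granzyme B inhibitor Serpinb9 (5.42 ± 0.45), Tm4sf5, Ccl5, the annexin Anxa3 (5.14 ± 0.44), Mreg, the membrane-bound matrix metalloprotease Mmp25 and the muscle-type enolase Eno3. Serpinb6b stood at 1015, 440, 510 and 1079 CPM against 5.89, 9.43, 4.21 and 20.1 CPM, and the groups did not overlap. Serpinb6b, Socs2, Serpinb9 and Ccl5 had more than 2 UMIs in the migratory DC of every mouse, and the other 11 genes had 2 or fewer in at least 1 mouse.

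The largest falls with a lower value in every mouse began with 4 genes without a UMI in any migratory DC. They were the prostaglandin-degrading enzyme Hpgd (at least 13.5-fold lower), the C-type lectin Clec4b1 (at least 14.1-fold), the leukotriene B4 receptor Ltb4r1 (at least 11.1-fold) and the mannose receptor Mrc1 (at least 14.0-fold). These bounds pool the 4 mice too. Comparison DC had 27, 51, 47 and 4 UMIs of Hpgd in mice 4 to 7. The migratory DC of mice 4 and 7 held few UMIs in all, so a 0 there does not by itself show a fall. Among those that followed were Lat2, the lectin Mgl2 (-4.89 ± 0.57), the integrin chain Itgb7, Ptpre, Naaa, Lyz2 (-4.15 ± 0.38), the shared leukocyte integrin chain Itgb2, the inflammatory chemokine receptor Ccr2 (-4.05 ± 0.49), Mef2c and Il6ra. Ccr2 had 0, 0, 17 and 0 UMIs in migratory DC, against 548, 696, 320 and 201 CPM in comparison DC. Lyz2 stood at 0, 105, 171 and 0 CPM against 2590, 2013, 1842 and 1508 CPM, again with no overlap.

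**Figure D4:**
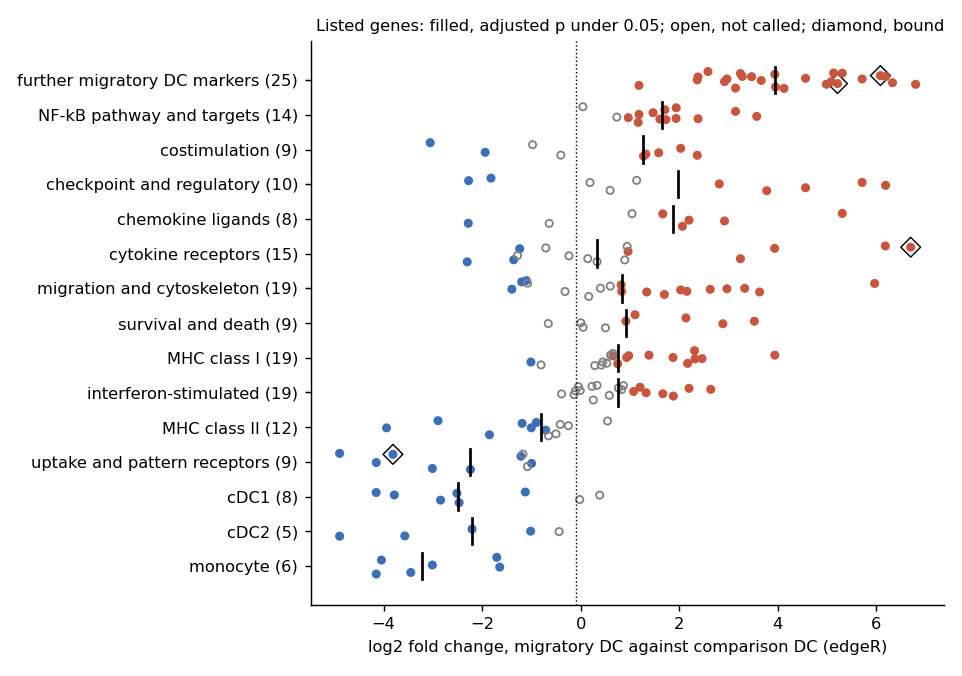
Log2 fold change of listed genes in migratory DC against comparison DC from edgeR, 1 point per gene tested, with the number tested in brackets. Filled points had an adjusted p under 0.05, black bars are list medians, the dotted line is the median of all genes tested (-0.10), and diamonds mark Apol7c, Slco5a1, Tnfrsf4 and Mrc1, drawn at their bounds because 1 class had no UMI. Most medians of marker, NF-kB, checkpoint and chemokine genes lie to the right and those of uptake, cDC1, cDC2 and monocyte genes to the left.

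NF-kB transcription factors drive DC maturation, and many of their targets are their own inhibitors and survival genes. Of 18 listed genes of the pathway and its targets, 14 could be tested, of which 12 were higher and none lower, with a median log2 fold change of 1.66. Relb stood at 554, 691, 911 and 906 CPM against 76.5, 52.8, 121 and 80.4 CPM (3.14 ± 0.36, edgeR adjusted p = 9.62e-12). Traf1 stood at 1200, 1320, 1220 and 949 CPM against 147, 156, 336 and 221 CPM (2.38 ± 0.33). In both genes every migratory DC value exceeded every comparison value. The subunits Nfkb2 (1.94 ± 0.36) and Rel (1.71 ± 0.30) and the kinase Map3k14 (1.73 ± 0.40) of the noncanonical arm rose as well. Also higher were the inhibitors Nfkbia (1.47 ± 0.30), Nfkbib and Nfkbie (0.97 ± 0.38), the deubiquitinase Tnfaip3, and Nfkbiz, Birc2 and Birc3. Rela (0.73 ± 0.48, edgeR adjusted p = 0.275) and Nfkb1 (0.04 ± 0.36, adjusted p = 0.946) did not pass the test. Without mouse 6, 7 of the 12 could be tested, in the same direction, and 5 stayed called.

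Promoters of the genes that moved were searched for the kappa-B consensus, on both strands, in the 250 bases before each listed start. A gene counted as holding the consensus when any of its starts did. Sequences were those of RefSeq on GRCm38.p6, the assembly of mm10. The consensus occurred in 60 of 295 matched genes that were higher in migratory DC (20.3%), in 23 of 277 that were lower (8.30%), in 156 of 1439 tested genes that were not called (10.8%) and in 2225 of all 27025 genes (8.23%). Median GC content was 60.6%, 56.8%, 61.2% and 52.4% in the same order. The part of GC content and of the number of starts per gene in these shares was not tested. Of the 60 genes that rose and held a match, 3 whose windows overlap no annotated exon are shown as examples, 5′ to 3′ along the gene, with the match in capitals. They are the NF-kB inhibitors Nfkbia (chr12:55492648-55492897, minus strand, match at -29 to -20 from the start) and Nfkbie (chr17:45555450-45555699, plus strand, -106 to -97), and the interleukin-2 receptor chain Il2ra (chr2:11642542-11642791, plus strand, overlapping matches over -201 to -191). Rel, Nfkb2 and Tnfaip3, which also rose, held a match too, but the windows at their outermost starts overlap an annotated exon. Of the 10 listed NF-kB pathway genes that rose and had a window, 5 held a match, and Nfkbib, Map3k14, Birc2, Birc3 and Traf1 held none. Windows of Ccl17, Ccl22, Il12b, Fscn1 and Cacnb3 also held no match to these letters, and a match is a description of sequence only.
Nfkbia: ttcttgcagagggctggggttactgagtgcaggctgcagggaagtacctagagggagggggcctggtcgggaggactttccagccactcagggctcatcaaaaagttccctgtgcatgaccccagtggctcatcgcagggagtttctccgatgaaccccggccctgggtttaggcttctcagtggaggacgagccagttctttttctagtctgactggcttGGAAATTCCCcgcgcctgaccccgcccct
Nfkbie: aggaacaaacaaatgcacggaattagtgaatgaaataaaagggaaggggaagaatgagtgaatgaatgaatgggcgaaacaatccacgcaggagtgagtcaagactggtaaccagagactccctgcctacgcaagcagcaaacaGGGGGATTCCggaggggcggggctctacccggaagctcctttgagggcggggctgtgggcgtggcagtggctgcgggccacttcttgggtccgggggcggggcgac
Il2ra: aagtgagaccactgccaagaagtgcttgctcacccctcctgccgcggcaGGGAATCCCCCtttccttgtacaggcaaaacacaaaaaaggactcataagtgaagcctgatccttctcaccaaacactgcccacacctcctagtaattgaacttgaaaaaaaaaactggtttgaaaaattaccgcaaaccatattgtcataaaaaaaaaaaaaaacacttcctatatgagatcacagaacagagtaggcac

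Among ligands, 8 of 15 listed chemokines could be tested. Of these, 5 were higher, Ccl5, Ccl17, Cxcl10, Cxcl16 and Cxcl9, and Ccl6 was lower (-2.28 ± 0.50). Cxcl16, the ligand of CXCR6, stood at 1200, 1089, 1119 and 863 CPM in migratory DC and at 159, 172, 421 and 221 CPM in comparison DC (2.07 ± 0.33, edgeR adjusted p = 3.12e-07), without overlap. The CXCR3 ligands were less even: Cxcl9 was higher in 3 mice and Cxcl10 in 2. In mouse 4, 46 of the 49 Cxcl9 UMIs lay in 1 cell, and in mouse 5 all 19 did, as did 80 of the 81 Cxcl10 UMIs there. With at least 4 selecting genes required, which left mice 5 and 6, their log2 fold changes were -1.74 and -1.03.

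Of 17 cytokines, 5 could be tested. Of these, 1 was higher and 1 lower, against 14.5% and 14.4% of all genes tested. Il12b (chr11:44400063-44414033, plus strand), the p40 subunit of interleukin-12 and interleukin-23, was higher (4.99 ± 0.51, edgeR adjusted p = 1.03e-13), and Tgfb1 was lower (-1.60 ± 0.41). In mouse 6, Il12b had a UMI in 47 of 119 migratory DC, 3 of 207 comparison DC and 11 of 456 macrophages and microglia. After thinning to 2000 UMIs these were 38 of 110, 2 of 202 and 10 of 424 cells, in the same order of classes. Il1b, at 738, 377, 1531 and 1640 CPM in migratory DC, had a log2 fold change of 0.01 ± 0.30.

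Of 15 receptors for cytokines tested, 5 were higher and 3 lower, against 14.5% and 14.4% of all genes tested. Tnfrsf4, which encodes OX40, had 0, 6, 91 and 1 UMIs in migratory DC and none in any comparison DC. With the mice pooled it was at least 104-fold higher, a bound that rests on mouse 6. It passed the filter on low counts through migratory DC alone. Il2ra had 0, 11, 91 and 3 UMIs against 1, 0, 3 and 0. Il7r stood at 92.3, 147, 313 and 302 CPM against 5.89, 9.43, 20.4 and 20.1 CPM (3.94 ± 0.46), with no overlap, and Il15ra (3.24 ± 0.70) and the common gamma chain Il2rg (0.96 ± 0.36) rose as well. These receptors are also used by T cells. The selection itself limited Cd3 RNA, and 15 of the 141 cells had UMIs of at least 2 of 10 listed T cell genes (Il7r included), 14 of them in mouse 6; their part in these values was not tested. Ifngr1, Crlf2 and Tnfrsf1a fell. Of the other chemoattractant receptors, the prostaglandin E2 receptor Ptger4 (1.68 ± 0.39) and the oxysterol receptor Gpr183 (1.36 ± 0.37) rose in 3 of 4 mice each, and Ccr2 and the cDC1 receptor Xcr1 fell.

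Genes of migration and the cytoskeleton rose more often than they fell, with 11 higher and 3 lower of 19 tested and a median log2 fold change of 0.83. The Cdc42 effector Cdc42ep3 (3.63 ± 0.47), the Rac-linked factor Swap70 (3.33 ± 0.36), Marcksl1 (2.97 ± 0.33) and the unconventional myosin Myo1g (2.63 ± 0.37) were higher in every mouse. Swap70 stood at 738, 733, 609 and 259 CPM against 58.9, 64.1, 67.4 and 20.1 CPM, so that the groups did not overlap. The tetraspanin Cd63 (5.97 ± 0.46), Marcks, Icam1, the sheddase Adam8, Ccdc88a, Lsp1 and Actb (0.82 ± 0.21) rose too. Vim (-1.20 ± 0.31), Coro1a (-1.10 ± 0.33) and Cd9 fell. Without mouse 6, 7 of the 13 that could be tested stayed called.

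For presentation, MHC class I and class II genes went opposite ways. Of 19 class I genes tested, 11 were higher and 1 lower, with a median of 0.75. H2-K1 stood at 3692, 2325, 3887 and 3668 CPM against 1319, 950, 1561 and 885 CPM (1.39 ± 0.26), without overlap, and its regulator Nlrc5 (2.32 ± 0.63), the light chain B2m (0.97 ± 0.25) and the transporter subunit Tap2 rose with it, while the chaperone Pdia3 fell. Of 12 class II genes tested, none was higher and 7 were lower, with a median of -0.80. H2-Ab1 stood at 10338, 5865, 6270 and 2373 CPM against 10208, 10546, 10816 and 9251 CPM (-1.0 ± 0.23), lower in 3 of 4 mice. H2-Aa and H2-Eb1 fell by 0.90 and 0.71 on the log2 scale, the transactivator Ciita by 1.19, the peptide editor H2-DMb1 by 2.90 and Marchf1, a ligase that removes class II from the surface, by 3.94. Marchf1 had 0, 0, 5 and 0 UMIs in migratory DC. Without mouse 6, 2 of the 6 class II genes that could be tested stayed called. Uptake and pattern receptors had no gene higher and 7 lower of 9 tested, with a median of -2.24.

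Genes of the costimulation list, which also held the inhibitory ligand Vsir, were higher in 5 and lower in 2 of 9 tested. Cd40, which receives help from T cells, stood at 646, 293, 301 and 129 CPM against 64.8, 17, 109 and 20.1 CPM (2.37 ± 0.39, edgeR adjusted p = 7.78e-07), without overlap. Few cells made up 2 of these values. In mouse 4, 6 of the 7 UMIs lay in 1 cell. Mouse 7 had 3 UMIs, and without its highest cell it stood at 49.2 CPM, below the comparison DC of mouse 6. Cd80 (1.58 ± 0.55), Icosl (1.32 ± 0.41) and Tnfsf9 (1.28 ± 0.38) rose as well, whereas Cd86 had a log2 fold change of -0.40 ± 0.39 (edgeR adjusted p = 0.48). Vsir (-3.06 ± 0.79) and Cd48 (-1.94 ± 0.45) fell. Icam1, counted here and with migration, rose in every mouse.

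Checkpoint and regulatory genes were higher in 5 and lower in 2 of 10 tested, with a median of 1.97. Of the 5, Il4i1, Socs2 and Cd200 were also counted among the further markers, and the others were Cd274 and Pdcd1lg2. Cd274, which encodes PD-L1, stood at 277, 272, 294 and 86.3 CPM against 35.3, 5.66, 74.4 and 0 CPM (2.81 ± 0.44, edgeR adjusted p = 1.72e-07). Every migratory DC value lay above every comparison value, although the value of mouse 7 was 2 UMIs. In mouse 4, all 3 UMIs lay in 1 cell, and the level without it was 0 CPM. Il4i1 (4.57 ± 0.42), Socs2, Cd200 and Pdcd1lg2, which encodes PD-L2 (3.78 ± 0.90), rose, and Lgals9 (-2.28 ± 0.66) and Havcr2 (-1.82 ± 0.47), a galectin and the receptor TIM-3, fell. Ido1, an enzyme often listed for such cells, had no UMI in any of the 141 cells.

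Survival genes were higher in 5 of 9 tested, among them Bcl2a1b (2.89 ± 0.32) and Cflar (2.14 ± 0.37), with none lower. Bcl2a1b shares close sequence with other genes of its family, and the split of reads between them is uncertain. Interferon-stimulated genes were higher in 7 of 19 and lower in none, with a median of 0.76. Among them were Gbp2, Irf1, Isg15, Ifit2, Cxcl9 and Cxcl10. With at least 4 selecting genes required, Ifit2 stood at -0.49, and in mouse 4 a single cell held 26 of the 28 Gbp2 UMIs. Of 14 immediate early and heat shock genes tested 5 were lower, the immediate early genes Egr1, Nr4a1, Fos, Atf3 and Jun, and Nr4a3 was higher (2.25 ± 0.36). Of 10 glycolysis genes tested, Ldha and Pfkp fell and 8 were not called, with a median of -0.31. Over all genes tested, 14.4% were lower. None of 3 cell cycle genes tested was called, and Mki67 had a UMI in 1, 2, 7 and 0 migratory DC. UMIs of at least 2 of the 15 listed cell cycle genes were found in 1, 4, 25 and 1 cells, 31 of the 141.

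Markers of the DC subsets were mostly lower. Of 8 cDC1 genes tested 6 fell, of 5 cDC2 genes 4 fell, and of 8 conventional DC genes Bcl11a, Itgax and Kmo fell. The cDC1 factors Irf8 (554, 209, 988 and 949 CPM in migratory DC) and Batf3 (92.3, 272, 178 and 302 CPM) were not called, at -0.02 ± 0.34 and 0.39 ± 0.35. At least 2 of the 10 listed cDC1 genes had a UMI in 77 of the 141 cells, and at least 2 of the 10 cDC2 genes in 57. Of the defining surface markers, Xcr1 had a UMI in 1, 0, 3 and 0 migratory DC, Clec9a in 0, 0, 4 and 1 and Cd209a in 0, 0, 1 and 1. Epcam, the 1 Langerhans cell gene tested, fell.

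Markers of other cell types were counted in the 141 cells. At least 2 of the listed genes were seen in 15 cells for T cells, in 1 for B cells, in none for NK cells, in 14 for macrophages and microglia, in 24 for monocytes, in none for neutrophils, in 4 for the oligodendrocyte lineage, in none for endothelial cells and in 1 for mural cells. Plasmacytoid DC genes were seen in 53 cells, with Bst2, which many activated cells express, carrying 542 of the 664 UMIs in mouse 6. Of the T cell genes, Il7r carried 188 of the 237 UMIs in mouse 6. Of the monocyte genes, Plac8 carried 951 of 1197 there, and all 6 monocyte genes tested were lower than in comparison DC. Reporter RNA came to 12 UMIs in 9 cells, and a C1q gene had a UMI in 9. Whether such cells were doublets or held free RNA was not tested, and cells without any C1q, Cd3 or reporter UMI kept 24 of the 25 further markers called.

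Against macrophages and microglia (584 cells with at least 2 C1q genes and Csf1r; 21, 39, 456 and 68 in mice 4 to 7), 3390 genes were tested, with 505 higher (14.9%) and 568 lower (16.8%) and a median of -0.18. All 25 further markers were higher, with a median of 4.92. Mreg had no UMI in any macrophage (at least 155-fold higher), and Serpinb6b (8.71 ± 0.58), Il4i1 (8.21 ± 0.55), Tbc1d4 (7.47 ± 0.51) and Nudt17 (7.30 ± 0.69) followed. Osteopontin (Spp1, at least 65.2-fold lower), Trem2 (at least 55.4-fold), Olfml3 (at least 26.5-fold), Cd93 (at least 24.9-fold) and Ccl12 (at least 22.2-fold) had no UMI in any migratory DC. These bounds, and that of Mreg, pool the 4 mice. All 14 uptake receptors tested were lower, with a median of -4.26, or -4.07 with the genes at 0 set at their bounds. Class II genes were higher in 2 and lower in 6 of 11, and checkpoint genes higher in 8 and lower in 2 of 11. In 1 macrophage of mouse 6, all 5 selecting genes had a UMI, and 1 cell of that class and mouse held 19 of the further markers, but the C1q condition kept such cells out.

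Age was compared within the migratory DC, a contrast the selection did not use. Of 534 genes that could be tested, edgeR called none at an adjusted p under 0.05 (0.0%), 28 had an unadjusted p under 0.05, and DESeq2 called 2. In 182 of the 534 (34.1%), the P43 and P70 mice did not overlap. Without any age effect, 2 against 2 mice do not overlap at a rate of 0.33, so this share is near that rate. Mice 4, 5 and 7 had 6, 7 and 9 cells in this comparison. In simulated data of this size, 71% of 4-fold and 91.5% of 8-fold changes were recovered. A count of 0 allowed up to 277 CPM of a gene such as Il12b in mouse 4 and up to 62.8, 4.99 and 129 CPM in mice 5 to 7, taking 3 counts as the floor.

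The 2 genes with the smallest adjusted p were a chemokine and a cytokine. Ccl17 (chr8:94810453-94812036, plus strand), near Ccl22 on the chromosome and like it a ligand of CCR4, stood at 1015 and 4964 CPM at P43 and at 78.1 and 129 CPM at P70, for a log2 fold change of -5.12 ± 0.80 (edgeR adjusted p = 0.0686; 7.27e-25 to 0.827 over 9 alternatives, of which 6 called it). It had a UMI in 3 of 6, 4 of 7, 11 of 119 and 3 of 9 cells. Few cells made up these values: in mouse 5, 154 and 57 of 237 UMIs lay in 2 cells, and 887 CPM remained without them. Il12b stood at 0 and 62.8 CPM at P43 and at 1227 and 1597 CPM at P70 (4.83 ± 0.76, edgeR adjusted p = 0.0686; 5.63e-06 to 0.142 over 9 alternatives, of which 7 called it). It had a UMI in 0 of 6, 2 of 7, 47 of 119 and 3 of 9 cells, and in mouse 7 a single cell held 30 of the 37 UMIs. Neither gene passed the test at the limit of 0.05.

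Stat4, which carries interleukin-12 signals, was at 0 and 20.9 CPM at P43 and at 464 and 475 CPM at P70 (4.74 ± 0.98, edgeR adjusted p = 0.195), in 0 of 6, 1 of 7, 81 of 119 and 6 of 9 cells. Its 2 highest cells carried 9.32% of its UMIs in mouse 6 and 54.5% of 11 UMIs in mouse 7, against 21.8% and 91.9% for Il12b. Ramp3 (4.13 ± 0.78, edgeR adjusted p = 0.143), Epb41 and Got1 were the other genes ranked as higher at P70. Cxcl9, Gbp2, Rrad and Cxcl10 were ranked as lower. Of these, Cxcl9 stood at 4523, 398, 381 and 43.2 CPM, and at 566 CPM in mouse 4 without its highest cell. In mouse 5 all 19 Cxcl9 UMIs lay in 1 cell, and without it the level there was 0 and the ages overlapped. Without the highest cell of mouse 5, Cxcl10 stood there at 26.7 CPM and Gbp2 at 267 CPM, both below mouse 6 (762 and 309 CPM), so that the ages overlapped for these as well. Ccl5, at 6461 and 1571 CPM at P43 against 16378 and 14370 CPM at P70, was higher in both P70 mice but not called. Of the 25 further markers, 16 could be tested, 9 did not overlap between the ages (34.1% over all genes tested), and none was called.

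The age change was also compared between migratory and comparison DC, as an interaction term in the same kind of fit. It differed in 7 of 2504 genes by edgeR (0.28%), in none by DESeq2, and in 103 at an unadjusted p under 0.05. The 7 genes were Cxcl10, Fabp5, Ccl4, Cd81, Gbp2, Cxcl9 and Gadd45b, and neither Ccl17 nor Il12b was among them. Of the 25 further markers, all tested, none was called, with Il4i1 at -2.75 ± 0.83 and Ccl17 at -2.55 ± 0.77. On simulated counts, this fit recovered 13.5% of 4-fold and 59.5% of 8-fold differences.

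**Figure D5:**
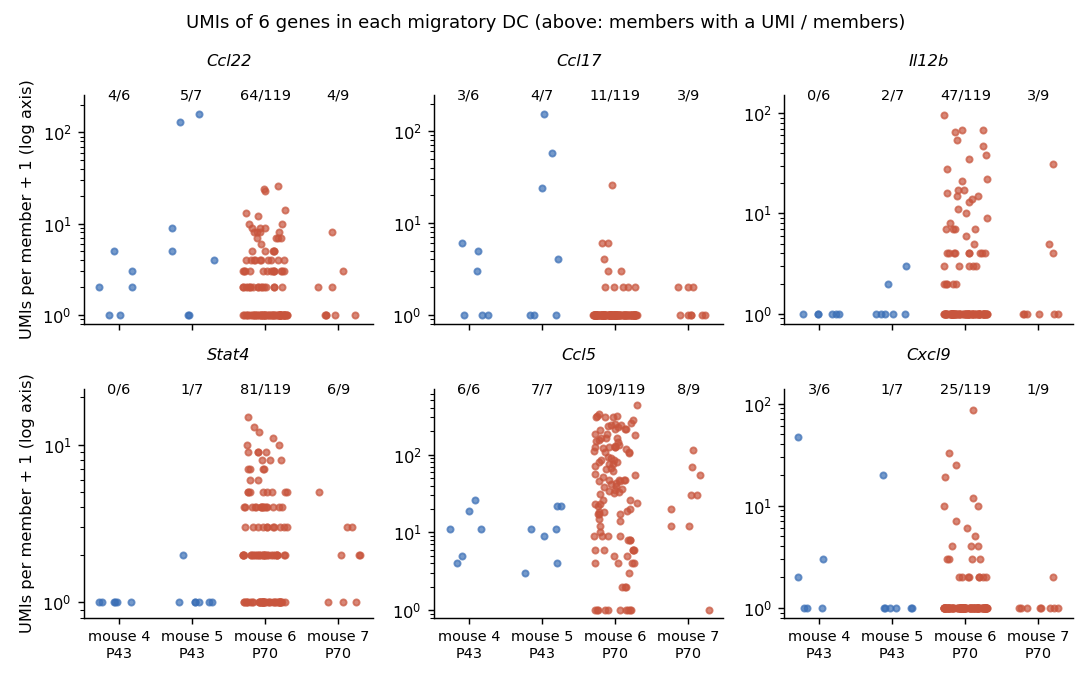
UMIs plus 1 in each migratory DC (1 point per cell, log axis) for Ccl22, Ccl17, Il12b, Stat4, Ccl5 and Cxcl9 in the P43 mice 4 and 5 and the P70 mice 6 and 7, with cells that had a UMI over all cells above each column. Il12b and Stat4 lie at or near 1 in the P43 cells, and a few cells hold most Ccl22 and Ccl17 UMIs of mouse 5.

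Within mouse 6, the cytokine and chemokine genes did not mark the same cells throughout. Il12b and Ccl22 were seen together in 26 of the 119 migratory DC, Il12b alone in 21, Ccl22 alone in 38 and neither in 34. Cells with and without Il12b had like depth, with a median of 5224 and 5246.5 UMIs. Depth was less even for Ccl22 (5632 UMIs with it and 4490 without) and for Ccr7 (5246.5 with it and 1465 without). Il12b and Ccl17 shared 3 cells, with 44 holding Il12b alone and 8 holding Ccl17 alone, whereas 10 of the 11 cells with Ccl17 also held Ccl22. Ccr7 and Fscn1 were seen together in 95 cells, Ccr7 alone in 19 and Fscn1 alone in 4. As Ccl22, Ccr7 and Fscn1 chose the cells, these counts are a description of the selected set.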

How the data were processed

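RNA of 4 mouse brain tumors was measured by 10x Genomics 3′ v3.1 libraries, 1 for each mouse, with 2 mice per age. Per the labels and the study's methods, the authors aligned reads with Cell Ranger 6.0.2 to mm10 with the reporter transcripts added and deposited a matrix of unnormalized UMI counts, genes by barcodes, for each mouse. From these counts, cells were kept and selected as stated, and no doublet caller was run. The members, the 36 gene lists and the gates of the comparison classes were chosen with earlier results of these data known. Lists share genes. Of the further markers, Il4i1, Socs2, Cd200, Relb, Traf1, Birc3, Ccl5, Ccl17, Cd40, Il12b, Il15ra, H2-M2 and Marcksl1 also stand in other lists. Named genes were the list genes and the 15 largest changes per direction that all 4 mice shared against comparison DC (5 against macrophages, and 5 whose ages did not overlap). A few genes these rules name are not reported here.

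Counts were summed per mouse and class and fitted in edgeR 4.0.16 (R 4.3.3; TMM scaling, filterByExpr, quasi-likelihood F-test), with the mouse as a block except for age. At least 10 cells per class and mouse were planned, which only mouse 6 met, so 5 were required instead, a choice made after the numbers of cells were seen. Alternatives were DESeq2 1.42.0, no filter on low counts, no block, stricter selections and leaving out each mouse. Shares were tested by exact permutation over mice in SciPy 1.17.1, with exact binomial (Clopper-Pearson) intervals. On simulated counts for the comparison with other DC, 92.5% of 4-fold and 14.5% of 2-fold changes were recovered. Each mouse was 1 library, so p-values of the comparisons by age alone measure the spread between mice and libraries together. In fits with the mouse as a block, they measure how the difference between classes within a mouse varied over the mice. Promoter sequences came from RefSeq on GRCm38.p6.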

Additional observations from a re-analysis of the deposited data

Results flagged for a closer look

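In 7 genes the age change, P70 against P43, differed between migratory and comparison DC by the edgeR interaction test. DESeq2 called none of them, and no explanation was tested. Differences are log2 age changes in migratory DC minus those in comparison DC, and levels are for mice 4 to 7. Over 9 alternatives, the difference ran from -8.80 to -2.36 for Cxcl10, -4.99 to -1.75 for Cxcl9 and -3.78 to 0.91 for Gbp2. It ran from -4.54 to -1.56 for Ccl4, -4.87 to -1.13 for Fabp5 and 1.70 to 3.72 for Gadd45b.

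The chemokine Cxcl10 differed by -4.95: migratory DC had 1661, 1697, 762 and 0 CPM and comparison DC 265, 15.1, 1213 and 20.1 CPM. In mice 4 and 5 most of the migratory DC UMIs of Cxcl10 lay in 1 cell each, 17 of 18 and 80 of 81. Cxcl9 differed by -3.15, at 4523, 398, 381 and 43.2 CPM against 830, 13.2, 479 and 20.1 CPM, and Gbp2 by -3.78, at 2584, 314, 309 and 43.2 CPM against 82.4, 13.2, 211 and 0 CPM. Without mouse 6, the Gbp2 difference turned to 0.91. In mouse 4, 1 cell held 46 of 49 Cxcl9 UMIs and 26 of 28 Gbp2 UMIs, and in mouse 5 all 19 Cxcl9 UMIs lay in 1 cell. The chemokine Ccl4 differed by -4.14, at 92.3, 482, 364 and 129 CPM against 23.6, 26.4, 590 and 80.4 CPM, and in mouse 5 a single cell held 22 of its 23 UMIs.

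Fabp5, a fatty acid binding protein, differed by -3.97. Its level was 923, 6451, 2665 and 2589 CPM in migratory DC and 29.4, 28.3, 303 and 402 CPM in comparison DC, and it was seen in 4 of 6, 7 of 7, 97 of 119 and 7 of 9 migratory DC. The stress gene Gadd45b differed by 2.58, at 831, 1759, 1536 and 1251 CPM against 453, 635, 93.4 and 181 CPM. For both genes, the values of the ages overlapped in migratory DC and did not in comparison DC, where no age test was run. The tetraspanin Cd81 differed by 7.95, at 0, 20.9, 103 and 129 CPM against 35.3, 67.9, 1.40 and 0 CPM. That size is not exact, since it rests on values of 0 in 1 mouse of each class, and it ran from 7.52 to 14.1 over 8 alternatives. In the migratory DC of mouse 4, 3 UMIs were 277 CPM, above both P70 values.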

How the results depend on the processing

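The 1.98-point difference in share between ages kept its direction under every other selection, denominator and thinning tried. Leaving out each mouse in turn gave -0.0715 (without mouse 6) to 4.02 points (without mouse 7). Against comparison DC, 724 genes were called. There were 1118 with no filter on low counts, 1153 with at least 4 selecting genes, 373 without the mouse as a block, and 134 (without mouse 6) to 1021 (without mouse 4) with a mouse left out. The number of genes tested changed as well, from 2504 to 1642 without the block, 907 without mouse 6 and 4941 without mouse 4. Of the 724, 480 could be tested without the block and 347 stayed called. Against macrophages and microglia, the 1073 became 1779 with no filter, 595 without the block, and 366 (without mouse 6) to 1345 (without mouse 4). Here the number tested went from 3390 to 2280 without the block, 1415 without mouse 6 and 4796 without mouse 4. For age, 0 became 2 by DESeq2 and 2 with no filter, 13 in cells without C1q, Cd3 or reporter UMIs, 11 in cells of at least 2000 UMIs (3 mice each), and 0 to 27 with a mouse left out, the highest without mouse 5. For the interaction, 7 became 0 by DESeq2 and 1 to 11 with a mouse left out.

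With at least 4 selecting genes, which left mice 5 and 6, directions reversed against comparison DC for Cxcl9 (-1.74), Cxcl10 (-1.03) and Ifit2 (-0.49), and against macrophages and microglia for Cxcl9 (-0.47), Cxcl10 (-0.32), Ifit2 (-0.25) and Ifi205 (-0.19). With each mouse left out in turn, the interaction of Gbp2 ranged from -3.71 to 0.91 (without mouse 6), against -3.78 with all mice. The causes were not tested. Among the 147 and 158 genes followed in these comparisons, the 10 for age and the 7 for the interaction, no other reversed under an alternative that could test it, and genes that were not called were followed only where the rule for age named them. Age and interaction were not run with at least 4 selecting genes. Migratory and other cells were paired within each mouse by the block. Between the ages, no paired analysis was possible because the labels give no replicate numbers that P43 and P70 share.

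The numbers of cells set the limits: mice 4, 5 and 7 held 6, 7 and 9 of the 141 cells, in mouse 4 a single UMI was 92.3 CPM of a gene such as Ccl17, and 2-fold changes were mostly below what the fits recovered.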
